A study of Rattus norvegicus with 35 samples.

Results

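Estradiol replacement was compared with vehicle in the hippocampus of ovariectomised rats, by RNA sequencing of 5 estradiol and 5 vehicle libraries, which are 10 of the 35 libraries analysed. The members were taken by the treatment label alone, with no use of measured values. All animals of these groups were female Sprague Dawley rats that lost their ovaries at 6 months of age and then had 2 weeks without treatment. Estradiol was injected into the peritoneum once daily at 0.16 mg/kg and tissue was taken at 7 days, while the vehicle group carried the same surgery without hormone; what the vehicle was made of is not given in the sources used here. Sham-operated females of the same strain and age, 5 libraries, kept their ovaries and are given beside both groups. The labels number the libraries separately and do not say whether each came from 1 animal, so p-values measure the spread between these libraries.

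Estradiol acts through the nuclear receptors Esr1 and Esr2 and the membrane receptor Gper1. Unliganded steroid receptors are held by Hsp90 with cochaperones such as Fkbp4 and Stip1, and bound receptors act at estrogen response elements or through other factors such as Creb. In the rodent hippocampus the hormone is known for effects on dendritic spines, neurotrophin signalling and mitochondrial function. The genes below are ordered by role: chaperones of the receptors, chaperones of the secretory pathway, neuropeptides, clock genes, myelin, redox and mitochondrial genes, and the receptors and their classical targets.

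The promoters of 4 genes described below are shown because each holds a known stress or activity element close to the start. Of the 4, Vgf passed with library class as a term, and Hspa5, Calr and Xbp1 passed neither as designed nor with that term. They are RefSeq sequences of the GRCr8 build, read on the gene's strand from 250 bases before to 50 bases after the annotated start, with the element in capitals. Hspa5 is at chr3:38452766-38453065 (plus strand), Calr at chr19:40213117-40213416 (plus), Xbp1 at chr14:84604373-84604672 (plus) and Vgf at chr12:25276971-25277270 (minus).
Hspa5: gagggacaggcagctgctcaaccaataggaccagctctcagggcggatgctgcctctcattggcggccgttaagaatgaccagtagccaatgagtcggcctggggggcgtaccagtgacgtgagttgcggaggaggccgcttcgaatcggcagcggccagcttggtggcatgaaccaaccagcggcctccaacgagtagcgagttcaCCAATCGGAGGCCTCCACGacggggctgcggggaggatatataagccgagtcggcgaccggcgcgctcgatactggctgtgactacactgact
Calr: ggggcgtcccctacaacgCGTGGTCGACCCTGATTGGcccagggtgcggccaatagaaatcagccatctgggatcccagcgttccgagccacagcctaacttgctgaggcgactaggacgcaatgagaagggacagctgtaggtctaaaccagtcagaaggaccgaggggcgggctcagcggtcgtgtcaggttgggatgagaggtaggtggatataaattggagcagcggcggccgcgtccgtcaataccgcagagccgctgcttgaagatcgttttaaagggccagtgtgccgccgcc
Xbp1: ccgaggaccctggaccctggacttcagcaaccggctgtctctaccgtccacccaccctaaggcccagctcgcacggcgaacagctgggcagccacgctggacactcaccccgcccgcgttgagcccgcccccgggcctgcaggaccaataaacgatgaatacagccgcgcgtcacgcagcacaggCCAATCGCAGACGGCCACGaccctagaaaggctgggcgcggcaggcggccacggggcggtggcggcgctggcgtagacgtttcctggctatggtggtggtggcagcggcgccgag
Vgf: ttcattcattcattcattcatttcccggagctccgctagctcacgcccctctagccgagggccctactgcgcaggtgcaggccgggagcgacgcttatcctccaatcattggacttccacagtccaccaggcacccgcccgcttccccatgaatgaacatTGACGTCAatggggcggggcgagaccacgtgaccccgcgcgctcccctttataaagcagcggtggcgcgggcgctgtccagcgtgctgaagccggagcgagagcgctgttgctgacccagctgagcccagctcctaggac

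In Hspa5, Calr and Xbp1 the capitals mark the endoplasmic reticulum stress element, searched on both strands as CCAAT, any 9 bases and CCACG, the letters to which the factors NF-Y and Atf6 are known to bind. It began 43 bases before the start in Hspa5, 65 in Xbp1 and 232 in Calr, where it lies on the opposite strand. Of 33469 promoters of this length 22 held it, or 0.0657%, and of 21 endoplasmic reticulum chaperone genes with a promoter sequence 7 held it, or 33.3%; the other four were Canx, Creld2, Dnajc3 and Hsp90b1. In Vgf the capitals mark the cyclic AMP response element TGACGTCA, the site of Creb, 90 bases before the start, which 1.83% of all promoters held. An E-box CACGTG, held by 6.42% of promoters, lay downstream of it in the same window, and the matches did not overlap. Estrogen response elements, searched on both strands as GGTCA, any 3 bases and TGACC, were found in 0.0269% of promoters. None was found in these windows of 14 estrogen-responsive genes. The same held for 25 genes, those with a promoter sequence among the named genes that passed with library class as a term (below). At so low a share almost any sets of this size would hold none, so this says nothing particular about these genes. Elements farther away were not searched.

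Library composition differed between the groups before any single gene was considered. Rn7sl1, the polymerase III RNA of the signal recognition particle, took 4.99, 5.42, 5.1, 5.69 and 5.88% of the counts in estradiol replicates 1 to 5. The vehicle replicates 1 to 5 stood at 4.7, 4.84, 4.74, 3.44 and 4.68%. All 5 estradiol libraries were above all 5 vehicle libraries, with means of 5.42 ± 0.378 and 4.48 ± 0.585% (SD, n = 5; exact two-sided permutation p 0.00794, the smallest that 5 against 5 libraries allow, 0.0159 after adjustment over 6 library measures). Mitochondrially encoded protein genes ran the other way without overlap, at 4.48 to 5.18% under estradiol and 5.27 to 6.66% under vehicle, with the same p. The sham libraries held 4.47 to 5.36% Rn7sl1 and 4.95 to 5.7% mitochondrial protein transcripts. Totals were 5.58 to 8.37 M counts in estradiol and 7.25 to 9.29 M in vehicle libraries (M for mega; exact permutation p 0.0556, adjusted 0.0833). Libraries of the whole series also fall into 2 classes, A and B, that the labels do not name and that were read from the per-gene factors of the authors' normalised table. All estradiol and sham libraries and vehicle replicates 1, 2, 3 and 5 are class A, and vehicle replicate 4 is the only class B library among these 10.

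The dissections also differed in choroid plexus, the epithelium that borders the hippocampus. Its transthyretin gene Ttr stood at 2.32, 2090, 1.8, 1.81 and 0.876 CPM (counts per M counts of the library, on TMM-scaled totals) in estradiol replicates 1 to 5 and at 5.92, 65.8, 1850, 2770 and 8.25 CPM in vehicle replicates 1 to 5. Estradiol replicate 2 and vehicle replicates 3 and 4 were thus high, and the groups overlapped. Over 11 choroid plexus markers the summed level ran from 5.55 to 2640 CPM under estradiol and from 14 to 3500 under vehicle. Markers of the hippocampal fields, such as Prox1 of the dentate gyrus, were present in every library. Their 12 members summed to 1070 to 1160 CPM under estradiol and 1020 to 1160 under vehicle. No marker list had a member at 0 in all libraries of a group. In bulk tissue, fewer cells of a type and less RNA per cell cannot be told apart.

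**Figure D1:**
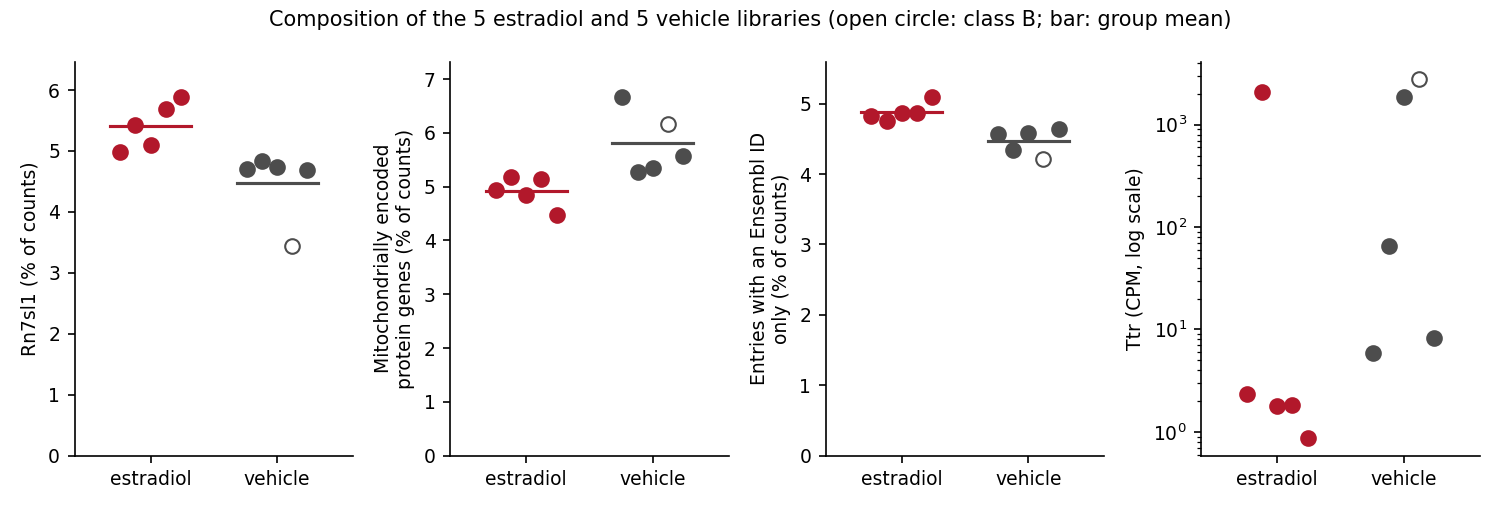
Share of counts in Rn7sl1, in mitochondrially encoded protein genes and in entries with an Ensembl identifier only (percent), and Ttr level (CPM, log axis), in each estradiol and vehicle library; bars are group means and the open circle is the class B library, vehicle replicate 4. In the first 3 panels the groups do not overlap, and Ttr is high in 1 estradiol and 2 vehicle libraries.

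Across the 14411 genes tested, 1 entry passed the test as designed (edgeR quasi-likelihood test, Benjamini-Hochberg adjusted p under 0.05), which is 0.00694% of them. It is Mt-ENSRNOG00000030478, a mitochondrial entry without a symbol. Its level was 1110, 1070, 1110, 1090 and 960 CPM under estradiol and 942, 523, 700, 538 and 627 under vehicle. The groups did not overlap, and vehicle replicate 1 was closest to the estradiol range. The log2 fold change was 0.68 ± 0.12 (SE; adjusted p 0.0377), and 0.59 with an adjusted p of 0.0648 when log2 Rn7sl1 percent was a term in the model. It passed in 2 of 10 fits that left out 1 library, those without estradiol replicate 5 or vehicle replicate 1, and stood at adjusted p-values of 0.0682 to 0.239 in the others. At an unadjusted p under 0.05 there were 1314 genes (9.12%), of which 615 were higher (4.27%) and 699 lower (4.85%) under estradiol. The 5 estradiol libraries did not overlap the 5 vehicle libraries in 538 genes (3.73%), 271 of them higher (1.88%) and 267 lower (1.85%).

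With library class as a term, 43 entries passed (0.298% of those tested), 32 higher (0.222%) and 11 lower (0.0763%) under estradiol. Of these, 29 have a symbol, 18 of them higher, and 37 of the 43 had groups that did not overlap (all genes: 3.73%). All 43 had the same direction as designed. Both fits use the same libraries and the 43 were chosen by their p with class, so neither count is a separate test. At an unadjusted p under 0.05 the fit with class held 1473 genes (10.2%). With log2 Rn7sl1 percent as the term instead, 0 genes passed, although 1188 (8.24%) were at an unadjusted p under 0.05, 587 higher (4.07%) and 601 lower (4.17%), and with Rn7sl1 beside class 5 passed, among them Vgf and Pon2. The count with class also rested on single libraries: it was 2 without vehicle replicate 5, 8 without estradiol replicate 5, 9 without estradiol replicate 4 or vehicle replicate 3, 10 without vehicle replicate 2, 12 and 15 without estradiol replicates 3 and 1, and 65 without vehicle replicate 4. The fit behind a value is therefore named where it is not the fit as designed. Adjusted p-values are from edgeR unless DESeq2 is named.

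**Figure D2:**
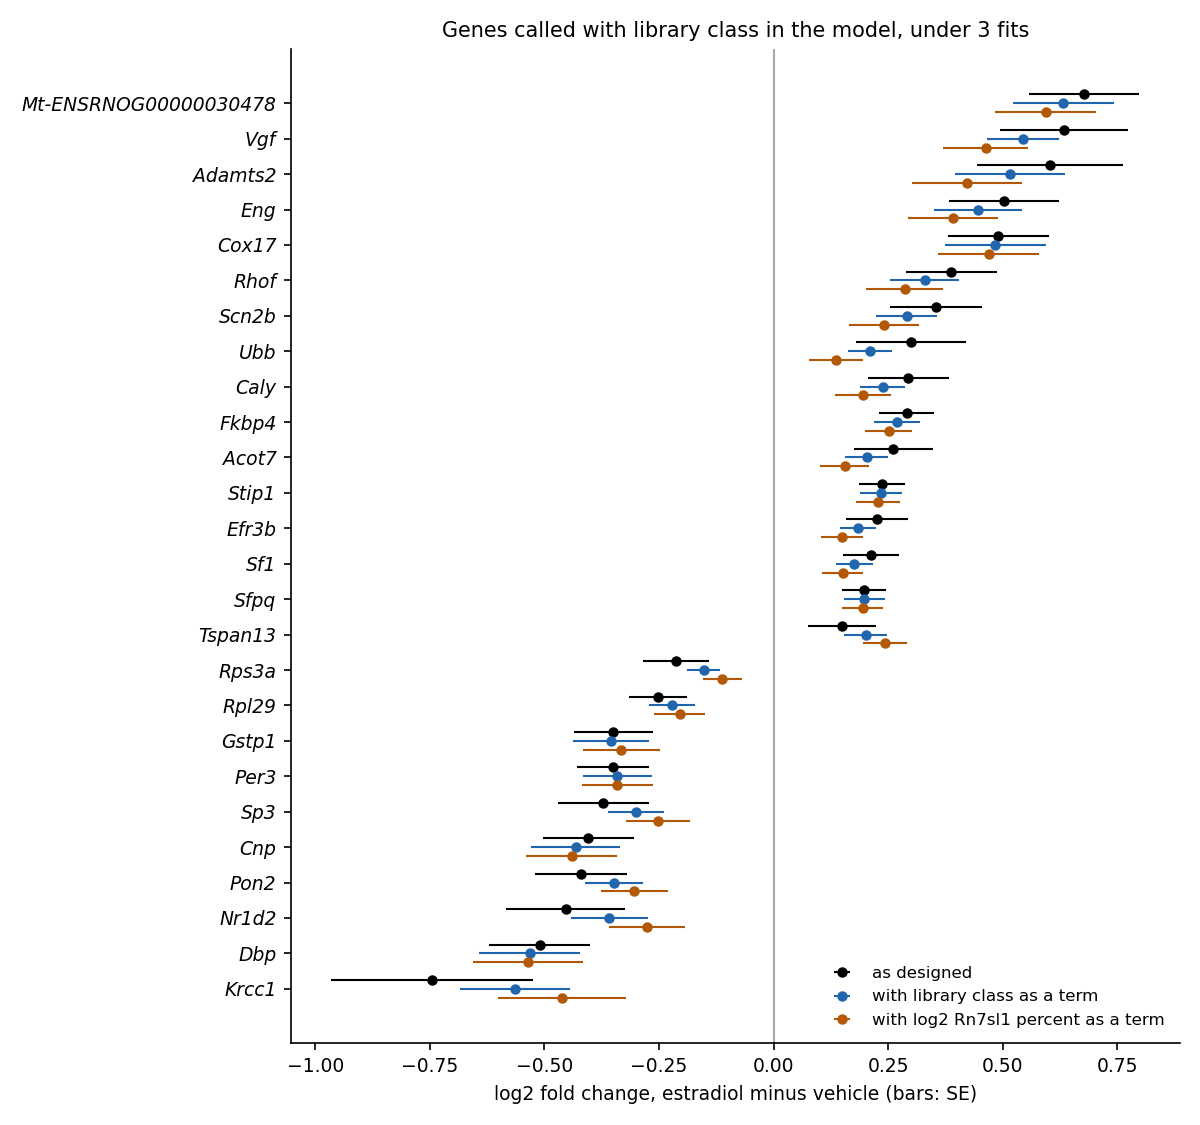
Log2 fold change (estradiol minus vehicle) with its SE for genes that passed with library class as a term (named genes apart from LOC and RGD entries, with Mt-ENSRNOG00000030478), in 3 edgeR fits. Directions are shared by the 3 fits, which use the same libraries, for every gene shown. Vgf moves from 0.63 as designed to 0.46 with log2 Rn7sl1 percent as a term.

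The Hsp90 cochaperones Fkbp4 and Stip1 stood higher under estradiol. Fkbp4, the immunophilin that sits on steroid receptor complexes, was at 123, 133, 119, 132 and 129 CPM under estradiol and at 99.3, 106, 112, 98.1 and 104 under vehicle. Stip1, which passes client proteins from Hsp70 to Hsp90, was at 130, 145, 139, 145 and 136 against 123, 116, 113, 123 and 115 CPM. Neither gene had any overlap between the groups. Both rose with class as a term, Fkbp4 by 0.27 ± 0.05 (adjusted p 0.0152) and Stip1 by 0.23 ± 0.046 (0.0255), in 8 and 6 of the 10 fits that left out 1 library, and neither passed as designed (0.0958 and 0.118). In DESeq2 as designed, Fkbp4 (adjusted p 0.00196), Stip1 (0.00448) and Hsp90ab1 (0.0245), the constitutive cytosolic Hsp90, were called. Sham libraries stood at 110 to 130 CPM for Fkbp4 and 129 to 153 for Stip1, and the estradiol minus sham folds were 0.07 ± 0.058 and 0.02 ± 0.05. The series also holds ovariectomised rats given tamoxifen, raloxifene, exemestane or anastrozole. Against the same vehicle libraries their Fkbp4 folds as designed were 0.142, 0.008, 0.037 and 0.057, in that order.

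Of the 24 heat shock and cochaperone genes tested, 6 were at an unadjusted p under 0.05 and higher, 0 lower (all genes: 4.27% and 4.85%), and those 6 had groups that did not overlap (all genes: 1.88% higher). The list's median log2 fold change was 0.133, against -0.0077 for all genes tested. Besides Fkbp4, Stip1 and Hsp90ab1 they were Ahsa1, which activates the Hsp90 ATPase, Hsph1, a nucleotide exchange factor of Hsp70, and the inducible Hsp70 gene Hspa1a. Under estradiol Hsph1, Ahsa1 and Hsp90ab1 folds were 0.15, 0.228 and 0.125. Under the 4 drugs, in the order above, Hsph1 stood at 0.204, 0.163, 0.128 and 0.127 against the same vehicle libraries. Ahsa1 stood at 0.198, 0.047, 0.08 and 0.121, and Hsp90ab1 at 0.091, 0.024, -0.003 and 0.074. Hspa1a stood at -0.05, -0.384, -0.369 and 0.065 under these drugs. Hspa1a was at 22.9, 20.8, 24.4, 32.5 and 25.7 CPM under estradiol and 17.5, 14.7, 18.6, 10.8 and 17.8 under vehicle. Its fold was 0.67 ± 0.23 (adjusted p 0.371), 0.53 with class (0.0552) and 0.38 with Rn7sl1 as a term. The lowest Hspa1a level was in vehicle replicate 4, the library of 3.44% Rn7sl1. The other cochaperones moved less with that term: Fkbp4 stood at 0.25 (adjusted p 0.0711) and Stip1 at 0.23 (0.0736), and the list median was 0.143, while Rn7sl1 ran from 4.99 to 5.88% under estradiol and 3.44 to 4.84% under vehicle. The heat shock element, searched on both strands as GAA, TTC and GAA with any 2 bases between each pair, lay in the promoters of 6 of 22 genes of the list (27.3%), against 0.798% of all promoters. Fkbp4 and Stip1 were not among those 6. Of the 6 only Hsph1 was at an unadjusted edgeR p under 0.05. The others stood at 0.043 (Chordc1), 0.124 (Dnaja1), -0.301 (Hspa8), -0.036 (Hspd1) and 0.144 (Hspe1). Whether the heat shock element bears on the levels was not tested.

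Several chaperones of the endoplasmic reticulum, among them the genes whose stress elements are printed above, stood higher under estradiol without passing as designed. Hspa5, the main chaperone of that compartment, was at 264, 320, 260, 292 and 278 CPM under estradiol and 193, 203, 211, 248 and 219 under vehicle. Sdf2l1, a part of its folding complex, was at 7.64, 9.94, 8.19, 8.79 and 9.49 against 4.96, 4.33, 5.82, 5.11 and 4.45 CPM. Every estradiol library lay above every vehicle library for both genes, with folds of 0.40 ± 0.11 and 0.84 ± 0.23 (adjusted p 0.258 each). Calr, the calcium-binding lectin chaperone calreticulin, stood at 340, 368, 328, 334 and 329 against 283, 288, 308, 316 and 296 CPM (0.19 ± 0.063). Xbp1, the transcription factor that expands the secretory pathway, was at 40.8, 40.5, 40.3, 40.4 and 37.7 against 31.1, 31.2, 32, 33.9 and 38.4 CPM, where only vehicle replicate 5 reached the estradiol range (0.26 ± 0.068; adjusted p 0.258). Of 25 genes in the list, 10 were higher and 1, Atf6, lower at an unadjusted p under 0.05 (all genes: 4.27% and 4.85%). The list's median was 0.102, against -0.0077 for all genes. The other list genes with the stress element stood at 0.102 (Hsp90b1), 0.24 (Creld2), -0.016 (Dnajc3) and -0.143 (Canx). Each of these was at an unadjusted edgeR p over 0.05. Whether the element bears on the levels was not tested.

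High Ttr and high levels of these chaperones met in some libraries and not in others. Estradiol replicate 2, with Ttr at 2090 CPM, had the highest Hspa5, Sdf2l1 and Calr of its group. Vehicle replicate 4, with Ttr at 2770, had the highest Hspa5 and Calr of the vehicle group. It is also the class B library, so class and choroid plexus cannot be told apart there. Vehicle replicate 3, with Ttr at 1850, was at the middle of its group for Hspa5. It had the highest Sdf2l1 of the vehicle group, at 5.82 CPM, and its Calr of 308 CPM was below only vehicle replicate 4. With log2 Ttr as a term the estradiol folds were larger, at 0.48 for Hspa5 and 1.02 for Sdf2l1, and both passed (adjusted p 0.0434 each). Restricting the whole series to libraries with Ttr under 500 CPM left folds of 0.42 and 0.90 with adjusted p-values of 0.413 and 0.668 on fewer libraries. In the fit of these 10 libraries alone Hspa5 and Sdf2l1 also passed (0.0298 and 0.0283). Log2 Rn7sl1 percent as a term left Hspa5 at 0.41 (adjusted p 0.235) and Sdf2l1 at 0.64 (0.331), with Rn7sl1 at 4.99 to 5.88% of counts under estradiol and 3.44 to 4.84% under vehicle. Sham libraries spread from 247 to 350 CPM for Hspa5 and from 5.94 to 9.85 for Sdf2l1, the highest 2 being sham replicates 1 and 2, with Ttr at 1370 and 1770 CPM. Sham replicate 3, with Ttr at 944 CPM, was at 266 for Hspa5 and 6.0 for Sdf2l1. Sham replicates 4 and 5, with Ttr at 3.85 and 3.27, were at 247 and 283 for Hspa5 and 5.94 each for Sdf2l1. Against sham the estradiol folds were -0.07 ± 0.11 and 0.24 ± 0.22. In the other ovariectomised groups Hspa5 also stood above the same vehicle libraries. Its folds as designed were 0.27 under tamoxifen, 0.257 under raloxifene, 0.169 under exemestane and 0.148 under anastrozole.

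**Figure D3:**
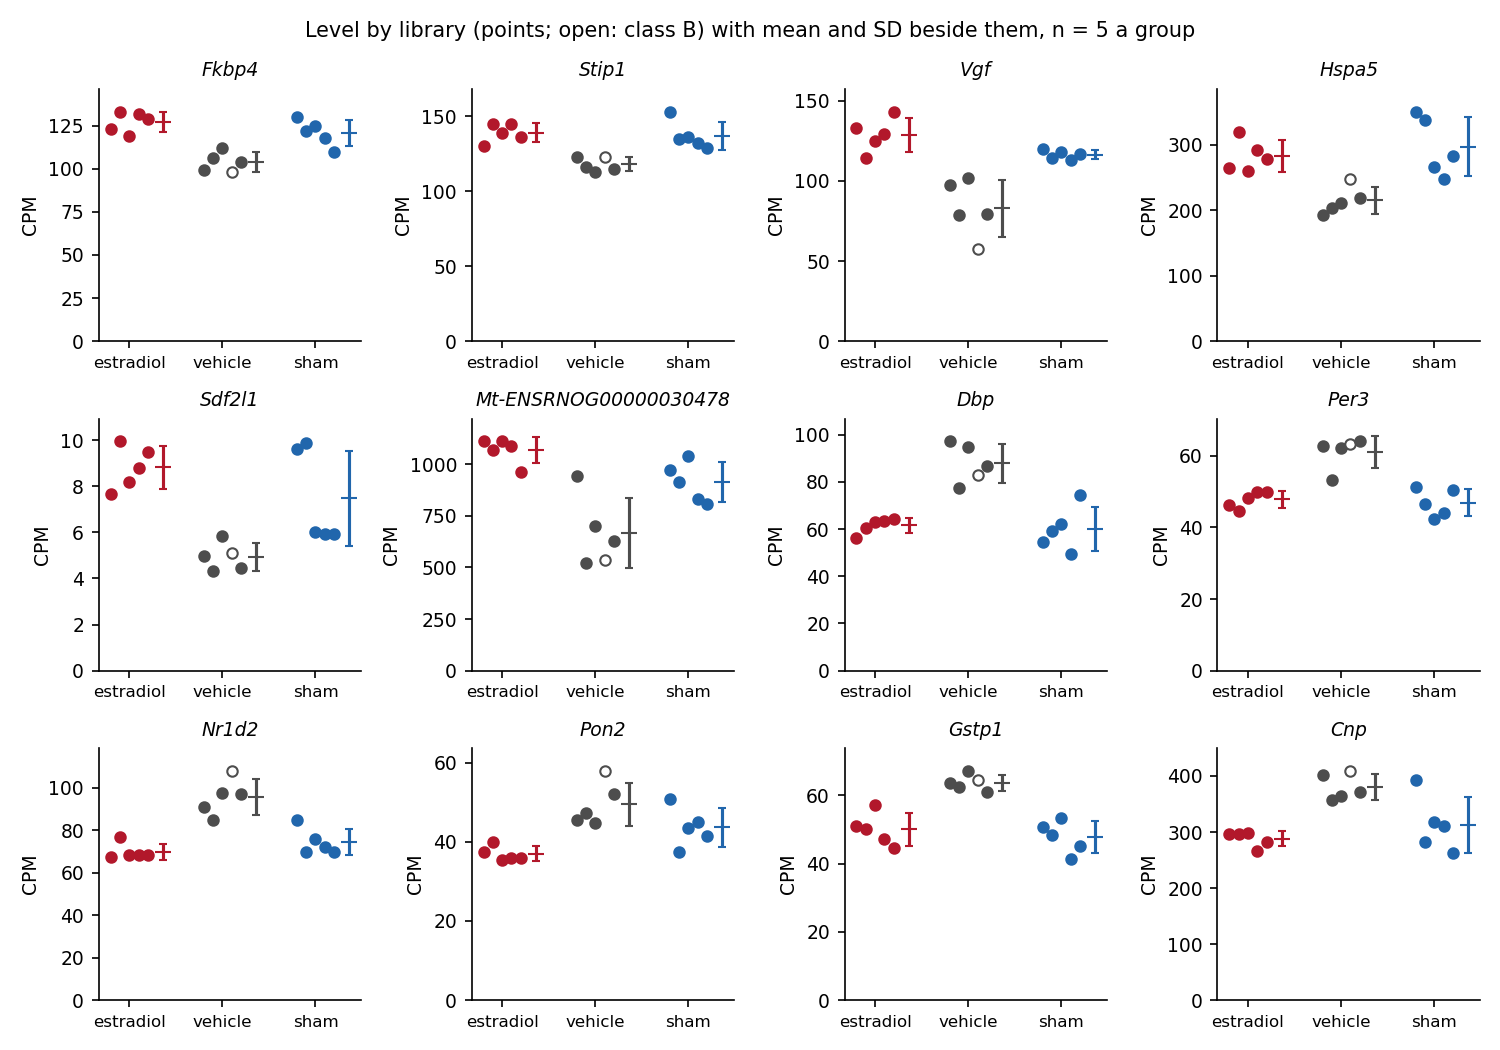
Level (CPM) of 12 genes in each estradiol, vehicle and sham library, with the mean and SD of each group beside its points (n = 5) and vehicle replicate 4, the class B library, as an open circle. Estradiol and vehicle libraries do not overlap in any of the 12 panels. The sham mean lies nearer the estradiol than the vehicle mean in each panel but Pon2, though in some panels sham libraries overlap vehicle libraries.

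Vgf, a neurotrophin-induced precursor of secreted neuropeptides, had the smallest adjusted p with class as a term. Its level was 133, 114, 125, 129 and 143 CPM under estradiol and 97.5, 79, 102, 57.2 and 79.6 under vehicle, without overlap. It rose by 0.54 ± 0.078 with class (adjusted p 0.00054), in 10 of 10 fits that left out 1 library, and stood at 0.63 ± 0.14 as designed (0.147). Vehicle replicate 4, with the lowest Rn7sl1 of the 10 libraries, also had the lowest Vgf. In the class A libraries alone, which leave it out, Vgf still passed at 0.53 (adjusted p 0.00522). With Rn7sl1 as a term the fold was 0.46 (0.0694). Sham libraries stood at 113 to 120 CPM, above every vehicle library.

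Other neuropeptide genes were divided. Of 14 secretory granule genes, 2 were higher and 1 was lower at an unadjusted p under 0.05 (all genes: 4.27% and 4.85%), with a median of 0.07. Chga, the granule protein chromogranin A, was at 126, 115, 135, 126 and 144 CPM against 116, 108, 111, 95.3 and 117 (0.24 ± 0.085; adjusted p 0.389), with overlap. Nucb2, the precursor of nesfatin-1, was lower without overlap, at 16.1, 18.5, 18.2, 18.1 and 19.4 against 21.9, 22.5, 20.4, 22.3 and 21.4 CPM (-0.26 ± 0.081; 0.309). Their folds with Rn7sl1 as a term were 0.14 and -0.22. Bdnf, the neurotrophin known to induce Vgf, overlapped between the groups at 22.3 to 33.9 and 20.5 to 29.4 CPM (0.16 ± 0.12; adjusted p 0.662). Of 9 neurotrophin and receptor genes 0 reached an unadjusted p under 0.05 (all genes: 9.12%). Rn7sl1 took 4.99 to 5.88% and 3.44 to 4.84% of counts in these same libraries.

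A group of genes of the circadian clock was lower under estradiol. Dbp, a transcription factor that carries the output of the clock, was at 56.4, 60.5, 63.2, 63.5 and 64.5 CPM under estradiol and 97.2, 77.4, 94.9, 82.8 and 86.9 under vehicle. Per3, a member of the period repressor family, was at 46.3, 44.7, 48.1, 50 and 49.9 against 62.6, 53.1, 62.3, 63.3 and 64 CPM. For Nr1d2, the nuclear receptor Rev-erb beta, the values were 67.4, 76.7, 68.4, 68.4 and 68.2 against 91, 85, 97.8, 108 and 96.9 CPM. None of the 3 had any overlap between the groups, and all 3 fell with class as a term, Dbp by 0.53 (adjusted p 0.0361), Per3 by 0.34 (0.0389) and Nr1d2 by 0.36 (0.0488). They passed in only 3, 2 and 2 of the 10 fits that left out 1 library. As designed the folds were -0.51 ± 0.11, -0.35 ± 0.078 and -0.45 ± 0.13. With log2 Rn7sl1 percent as a term Dbp and Per3 stood at -0.54 and -0.34, whereas Nr1d2 shrank to -0.28 (adjusted p 0.106, 0.119 and 0.291), for libraries with 4.99 to 5.88% Rn7sl1 under estradiol and 3.44 to 4.84% under vehicle.

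The rest of the clock list was divided. Of 19 clock genes, 4 were lower and 1 was higher at an unadjusted p under 0.05 (all genes: 4.85% and 4.27%), and the median of the list was -0.0169, against -0.0077 for all genes. The remaining lower gene was Ciart, a repressor of Clock and Bmal1, at 4.15, 3.37, 4.58, 4.94 and 4.38 against 5.23, 5.81, 7.21, 4.57 and 6.18 CPM, with overlap. Nfil3, which represses at the sites Dbp activates, was the higher one, at 7.64, 7.63, 7.53, 9.76 and 8.47 against 4.68, 5.81, 6.58, 4.43 and 8.25 CPM (0.46 ± 0.18; adjusted p 0.448). Sham libraries stood at 49.6 to 74.6 CPM for Dbp and 42.3 to 51.2 for Per3, below every vehicle library, and the estradiol minus sham folds were 0.04 ± 0.11 and 0.03 ± 0.078. The estradiol and sham comparisons share the vehicle libraries, as do those of the other ovariectomised groups. Against vehicle, Dbp folds as designed were -0.391 under tamoxifen, -0.636 under raloxifene, -0.492 under exemestane and -0.303 under anastrozole. The hour at which tissue was taken is not given in the sources used here.

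Myelin genes were lower as a group. Of 16 myelin genes, 10 were lower and 0 higher at an unadjusted p under 0.05 (all genes: 4.85% and 4.27%). In 7 the estradiol libraries were all below the vehicle libraries (all genes: 1.85%). Folds were negative in 15 (all genes: 7488 of 14411), and the median was -0.318, against -0.0077 for all genes. The summed level of the list was 6120, 6110, 6330, 5940 and 6240 CPM under estradiol and 7580, 6890, 7170, 8470 and 7730 under vehicle, again without overlap. Cnp, a phosphodiesterase of the myelin sheath, was at 296, 296, 298, 267 and 282 against 402, 357, 364, 409 and 372 CPM and fell with class as a term by 0.43 ± 0.097 (adjusted p 0.0425; -0.40 ± 0.099 and 0.216 as designed), though in 0 of 10 fits that left out 1 library. Opalin, a membrane protein of myelinating cells, was at 92.5, 84.5, 98.2, 68.8 and 72.7 against 124, 124, 106, 147 and 99.6 CPM (-0.53 ± 0.14; adjusted p 0.258). Plekhb1, a phosphoinositide-binding protein, and Fa2h, the hydroxylase of myelin sphingolipids, also did not overlap, at 137 to 175 against 190 to 216 CPM and 22.8 to 26.1 against 29.5 to 38.3 CPM. Myelin basic protein Mbp stood at 2950 to 3220 against 3370 to 3840 CPM (-0.23 ± 0.11; 0.526).

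Vehicle replicate 4 stood apart in some of these genes. It held the highest Tspan2, a tetraspanin of oligodendrocytes, at 179 CPM against 97.5 to 110 in the other vehicle libraries. With class as a term the fold of Tspan2 was -0.45, against -0.62 as designed, and the list median was -0.305. With Rn7sl1 as a term the median was -0.296 and the Cnp fold -0.44 (adjusted p 0.119), beside 4.99 to 5.88% Rn7sl1 under estradiol and 3.44 to 4.84% under vehicle. Sham libraries overlapped both groups, at 262 to 392 CPM for Cnp, and the median of the list was -0.147 for estradiol minus sham and -0.182 for sham minus vehicle. Cnp was also lower than in the same vehicle libraries in the other ovariectomised groups. Its folds as designed were -0.402 under tamoxifen, -0.428 under raloxifene, -0.412 under exemestane and -0.296 under anastrozole.

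Enpp6, an enzyme of newly forming oligodendrocytes, was lower by a larger fold. Its level was 2.32, 2.49, 3.11, 2.41 and 2.63 CPM under estradiol and 4.68, 4.1, 5.95, 7.93 and 6.4 under vehicle, with no overlap (-1.16 ± 0.33; adjusted p 0.288 as designed and 0.163 with class). It passed in the fit of these 10 libraries alone (0.0298). Bcas1, another gene of the newly myelinating stage, was at 134 to 175 against 179 to 207 CPM (-0.31 ± 0.11; 0.384). Of 11 precursor and newly forming cell genes, 3 were lower and 0 higher at an unadjusted p under 0.05 (all genes: 4.85% and 4.27%). Rn7sl1 as a term left Enpp6 at -1.19 (0.291) and Bcas1 at -0.32, with 4.99 to 5.88% against 3.44 to 4.84% of counts in that RNA.

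**Figure D4:**
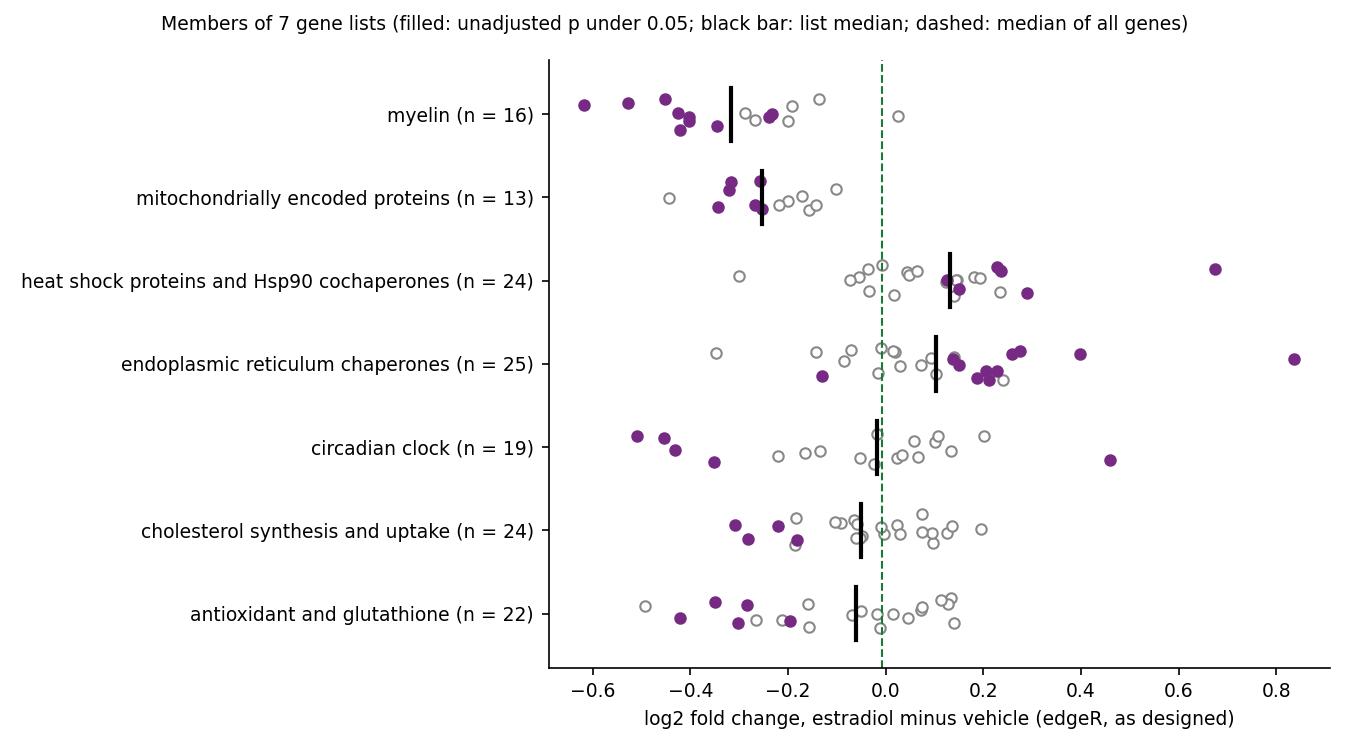
Log2 fold change (estradiol minus vehicle, edgeR as designed) of each tested member of 7 gene lists, filled where the unadjusted p was under 0.05; black bars are list medians and the dashed line is the median of all genes, -0.0077. Members of the myelin list lie left of 0 with 1 exception, all 13 mitochondrially encoded genes lie left of 0, and the heat shock and endoplasmic reticulum lists lie mostly to the right.

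Redox genes included 2 of the 11 entries that were lower with class. Pon2, a lactonase of mitochondria and the endoplasmic reticulum with antioxidant action, was at 37.5, 40, 35.5, 36 and 35.8 CPM under estradiol and 45.4, 47.3, 44.7, 57.9 and 52 under vehicle. Gstp1, a glutathione transferase, was at 51.1, 50.2, 57, 47.1 and 44.4 against 63.5, 62.4, 67.1, 64.5 and 60.9 CPM. Neither gene had any overlap, and with class Pon2 fell by 0.35 (adjusted p 0.0109, in 9 of 10 fits that left out 1 library) and Gstp1 by 0.36 (0.0488, in 0 of 10). Gsta6, also a glutathione transferase, stood at 7.47, 7.46, 5.73, 5.3 and 5.4 against 7.57, 10.5, 7.85, 11 and 12.4 CPM (-0.66 ± 0.17; adjusted p 0.239). Over the 22 antioxidant genes 5 were lower and 0 higher at an unadjusted p under 0.05 (all genes: 4.85% and 4.27%), among them the peroxiredoxin Prdx1 (-0.28 ± 0.12) and Nfe2l2, the regulator Nrf2 (-0.30 ± 0.13), and the median was -0.06. Folds with Rn7sl1 as a term were -0.30 for Pon2 (adjusted p 0.126) and -0.33 for Gstp1 (0.16), beside the Rn7sl1 shares of 4.99 to 5.88% and 3.44 to 4.84%. Gstp1 in sham libraries, at 41.3 to 53.3 CPM, was below every vehicle library, while Pon2 in sham, at 37.5 to 50.9, overlapped them.

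Mitochondrially encoded and nuclear genes of respiration mostly stood on opposite sides of 0. Each of the 13 protein genes encoded in mitochondria was below 0 on the log2 scale, 6 of them at an unadjusted p under 0.05 (all genes: 4.85% lower), with a median of -0.254. Mt-co2, a core subunit of cytochrome oxidase, was at 3200, 3170, 3090, 3230 and 3000 CPM under estradiol and 4790, 3340, 3420, 3900 and 4090 under vehicle, without overlap (-0.32 ± 0.11; adjusted p 0.36). The other core subunits showed the same separation, Mt-co1 at 11300 to 13200 against 13300 to 16300 CPM and Mt-co3 at 5030 to 5790 against 6290 to 8040 CPM. The list's median became -0.173 with class and -0.11 with log2 Rn7sl1 percent as a term. Among nuclear genes, 29 of 36 for complex I and 37 of 44 for complexes II to V and their assembly had positive folds, with 3 and 4 higher and 0 and 1 lower at an unadjusted p under 0.05 (all genes: 4.27% and 4.85%). Over all genes tested, 6923 of 14411 folds were positive. The medians of these 2 nuclear lists were small, at 0.0963 and 0.0766. They became 0.0648 and 0.0718 with class and 0.0341 and 0.0485 with Rn7sl1 as a term. Cox17, the copper chaperone that supplies cytochrome oxidase, was at 13.6, 16, 20.6, 16 and 20.7 against 14.5, 12.3, 11.8, 12.8 and 10.7 CPM; the groups overlapped in estradiol replicate 1. It rose with class by 0.48 ± 0.11 (adjusted p 0.0395, in 4 of 10 fits that left out 1 library) and stood at 0.47 with Rn7sl1 as a term (0.121), with 4.99 to 5.88% against 3.44 to 4.84% Rn7sl1. Against the same vehicle libraries Cox17 folds as designed were 0.292 under tamoxifen, 0.38 under raloxifene, 0.249 under exemestane and 0.297 under anastrozole. Ndufab1, the acyl carrier subunit of complex I, was at 29.5, 35.5, 33.2, 34 and 35.2 against 29.2, 30.5, 27.8, 26.7 and 28.9 CPM (0.23 ± 0.069; 0.309).

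Sterol synthesis and ribosomal protein genes held smaller differences. Msmo1, a sterol oxidase of cholesterol synthesis, was at 60.1, 64.1, 63, 59.6 and 60.3 CPM under estradiol and 73, 74, 73.2, 80 and 73.6 under vehicle, without overlap. Its fold was -0.28 ± 0.071 (adjusted p 0.239, and 0.0552 with class). Insig1, which restrains sterol synthesis, was at 57.6, 45.5, 53.9, 54.1 and 50.2 against 63, 65.8, 65.6, 65.3 and 63.8 CPM (-0.31 ± 0.08; 0.258). Cyp51 and Hmgcs1, enzymes of the same pathway, were the other two of the 4 genes, among 24, that were lower at an unadjusted p under 0.05, and 0 were higher (all genes: 4.85% and 4.27%). Of 70 cytosolic ribosomal protein genes 11 were lower and 0 higher by the same measure. Rpl29 and Rps3a fell with class by 0.22 (adjusted p 0.0473) and 0.15 (0.0488), at 101 to 112 against 113 to 141 CPM and 141 to 145 against 155 to 194 CPM. They passed in 1 and 0 of the 10 fits that left out 1 library. Such genes have processed copies in the genome, so their counts are uncertain. With Rn7sl1 as a term, at 4.99 to 5.88% and 3.44 to 4.84% of counts, the folds of Msmo1, Rpl29 and Rps3a were -0.23, -0.21 and -0.11.

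The receptors and aromatase gave no call. Esr1 was at 0.996, 0.888, 2.13, 2.77 and 1.17 CPM under estradiol and 2.89, 2.17, 2.4, 1.61 and 1.95 under vehicle (-0.43 ± 0.3; adjusted p 0.64). Esr2 stood at 0.491 to 1.9 against 0.651 to 1.79 CPM, Gper1 at 0.491 to 1.9 against 0.538 to 1.27 and the aromatase gene Cyp19a1 at 0.361 to 1.31 against 0.759 to 1.52, all with overlap and at low levels. Pgr, the progesterone receptor and a classical estrogen target, was at 22.4, 22.4, 20.6, 23.1 and 20.6 against 19.7, 23.1, 26.7, 21.1 and 19.4 CPM. Its fold was -0.01 ± 0.1 (adjusted p 0.98). The orphan receptor Esrra was at 37.5, 46.2, 38.8, 42.6 and 43.2 against 33.5, 34, 38.6, 31.6 and 33.7 CPM, with overlap (0.28 ± 0.13; 0.508). Of 10 receptor and aromatase genes tested, 2 were higher and 0 lower at an unadjusted p under 0.05 (all genes: 4.27% and 4.85%). Of 17 estrogen-responsive genes 2 were higher and 2 lower (all genes: 4.27% and 4.85%), counts too small to set apart from that background, with a median of 0.0799. Of 21 amyloid and tau genes 0 reached an unadjusted p under 0.05 (all genes: 9.12%). Rn7sl1 as a term left Esrra at 0.11, beside shares of 4.99 to 5.88% and 3.44 to 4.84%.

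The endothelial gene Eng and the matrix gene Adamts2 were among those higher with class. Eng, the TGF-beta coreceptor endoglin, was at 22.9, 24.5, 27, 24.7 and 26.1 CPM under estradiol and 20.4, 18.5, 16.5, 15.7 and 17.4 under vehicle, without overlap. It rose by 0.45 ± 0.097 with class (adjusted p 0.0386, in 4 of 10 fits that left out 1 library; 0.50 ± 0.12 and 0.17 as designed). Adamts2, which trims procollagen, was at 17.4, 21.5, 17.5, 15.4 and 23.6 against 13.1, 13.7, 12.5, 10.6 and 12.8 CPM and rose by 0.52 (0.0488, in 1 of 10). The 11 endothelial markers summed to 271 to 314 CPM under estradiol and 253 to 280 under vehicle. Of these, 2, Eng and the clotting factor carrier Vwf, were higher at an unadjusted p under 0.05 (all genes: 4.27%). The list median was -0.00256. With Rn7sl1 as a term Eng stood at 0.39 (0.147) and Adamts2 at 0.42 (0.215), for 4.99 to 5.88% against 3.44 to 4.84% Rn7sl1. Of 14 astrocyte genes 0 were higher and 2 lower at an unadjusted p under 0.05 (all genes: 4.27% and 4.85%). Their median was -0.0843, with 4 positive folds (all genes: 6923 of 14411). Of 17 microglial genes 0 were higher and 2 lower by the same measure, with 7 positive folds and a median of -0.0599. Among these, the water channel Aqp4 of astrocytes stood at 330 to 384 against 353 to 504 CPM (-0.36 ± 0.12; 0.384) and Trem2, a microglial receptor, at 2.66 to 5.55 against 4.13 to 7.27 (-0.52 ± 0.19; 0.393). Astrocyte markers summed to 4340 to 4740 against 4620 to 5520 CPM and microglial markers to 283 to 330 against 277 to 397.

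Further genes with a symbol passed with class as a term. Scn2b, a beta subunit of voltage-gated sodium channels, was at 126, 110, 126, 115 and 130 CPM under estradiol and 99.7, 103, 94.9, 79.7 and 96.3 under vehicle and rose by 0.29 (adjusted p 0.0487). Efr3b, which anchors a phosphoinositide kinase at the membrane, rose by 0.18 (0.0386) and Caly, a neuronal vesicle protein, by 0.24 (0.0269). Vehicle replicate 4 held the lowest Caly, Efr3b and Scn2b. Acot7, a brain acyl-CoA thioesterase, rose by 0.20 (0.0473), the ubiquitin gene Ubb by 0.21 (0.0401), the small GTPase Rhof by 0.33 (0.0421) and the tetraspanin Tspan13 by 0.20 (0.0488). The splicing proteins Sfpq and Sf1 rose by 0.20 (0.0389) and 0.18 (0.0425), at 111 to 128 against 102 to 109 CPM and 142 to 146 against 115 to 128 CPM, both without overlap. The transcription factor Sp3, at 44.7, 53.4, 53.5, 55.3 and 49.8 against 63.3, 55.7, 72, 75.1 and 66.4 CPM, fell by 0.30 (0.0255), and Krcc1, at 6.97 to 8.88 against 10.8 to 18.9, by 0.56 (0.0386). The class B library, vehicle replicate 4, also held the lowest Acot7, Ubb, Rhof and Sf1 of the vehicle group. It held the highest Sp3, Krcc1 and Tspan13 of that group, and for Tspan13 that narrowed the difference from estradiol. With 1 library left out Sp3 passed in 6 of 10 fits, Caly in 4, Ubb, Sfpq, Rhof and Krcc1 in 3, Scn2b, Acot7, Sf1 and Tspan13 in 2 and Efr3b in 1. With Rn7sl1 as a term the fold of Ubb went from 0.30 as designed to 0.14, that of Krcc1 from -0.74 to -0.46 and that of Sfpq from 0.20 to 0.19, with Rn7sl1 at 4.99 to 5.88% and 3.44 to 4.84%.

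Some further genes had larger folds or no described role. Cbln4, a synaptic organiser, was at 34.2, 29.7, 32.7, 32.8 and 28.6 CPM under estradiol and 27.9, 24.8, 8.61, 21.4 and 16.8 under vehicle (0.67 ± 0.19; adjusted p 0.264). The cytokine Il18 was lower, at 0.332, 0.71, 0.491, 1.08 and 0.876 against 1.65, 1.37, 2.15, 1.48 and 1.74 CPM (-1.21 ± 0.37; 0.309). In both genes the groups did not overlap. Against the same vehicle libraries Cbln4 folds as designed were 0.714 under tamoxifen, 0.697 under raloxifene, 0.756 under exemestane and 0.605 under anastrozole. Ndufa10l1, at 1.31 to 2.89 CPM under estradiol, was at 0 in vehicle replicates 1 and 4 and at 0.38 to 0.456 in the others (3.04 ± 0.91; 0.309), while sham ran from 0 to 3.38. LOC100364062 was at 3.49, 3.37, 4.58, 3.13 and 4.53 against 0.964, 1.14, 1.14, 0.941 and 1.52 CPM and rose with class by 1.61 ± 0.35 (adjusted p 0.0386), with 1.03 to 2.09 in sham. RGD1563601, at 2.13 to 6.71 against 0.672 to 2.06 CPM, rose by 1.34 ± 0.29 (0.0361), and LOC103694872, at 142 to 162 against 106 to 134, by 0.22 (0.0389); no function is given for these 3 here, and with 1 library left out they passed in 2, 3 and 3 of 10 fits. LOC100911371 was at 0, 2.84, 5.08, 0 and 0 against 2.75, 18.5, 21.8, 23 and 15.4 CPM and fell with class by 3.37 (adjusted p 0.0361, in 4 of 10 such fits; -3.47 ± 0.67 and 0.0958 as designed), with 5.39 to 27.9 in sham. Its fold against sham was -3.25 ± 0.68 (0.274). Folds with Rn7sl1 as a term were 0.73 for Cbln4, -1.07 for Il18 and -3.32 for LOC100911371, with Rn7sl1 at 4.99 to 5.88% and 3.44 to 4.84%.

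Entries that carry an Ensembl identifier only differed in their share as well. Together they took 4.75 to 5.09% of counts under estradiol and 4.21 to 4.64% under vehicle, without overlap (exact permutation p 0.00794, adjusted 0.0159), and 4.51 to 4.71% in sham. Of the 951 tested, 63 were higher and 45 lower at an unadjusted p under 0.05 (all genes: 4.27% and 4.85%). With class 13 were called, all 13 higher, where 0.222% of all genes were called higher. UNKNOWN_ENSRNOG00000055825 was at 1850, 1680, 1810, 1980 and 2310 CPM under estradiol and 1410, 740, 1180, 579 and 907 under vehicle. Its fold was 1.003 ± 0.33 as designed, 0.79 with class (adjusted p 0.0395, in 3 of 10 fits that left out 1 library) and 0.57 with Rn7sl1 as a term (0.188). UNKNOWN_ENSRNOG00000034093, at 409, 400, 415, 406 and 448 against 329, 323, 337, 275 and 343 CPM, rose by 0.30 with class (0.00255) in 10 of 10 fits that left out 1 library, and stood at 0.24 with Rn7sl1 as a term (0.119). None of these identifiers matched a gene name, and what RNAs they are was not determined. Rn7sl1 itself was at 50000, 53600, 50500, 57300 and 58900 against 47400, 47500, 46700, 33500 and 47200 CPM (0.28 ± 0.18; 0.616), 0.15 with class.

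The estradiol minus sham folds do not use the vehicle libraries, though these entered the filter, scaling and estimate of spread of the same fit. Against the sham group, estradiol gave 0 genes by edgeR (859 at an unadjusted p under 0.05, or 5.96%, of which 421 or 2.92% were higher and 438 or 3.04% lower) and 2 by DESeq2. The count stayed at 0 in each fit that left out 1 library. A p that misses the threshold does not show that the groups were alike. Sham and estradiol libraries overlapped in Rn7sl1, at 4.47 to 5.36% and 4.99 to 5.88%.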

How the data were processed

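Hippocampal RNA of 35 libraries in 7 groups of 5 was sequenced from stranded poly(A) libraries, in paired-end runs of 100 bp aiming at 30 M reads (M, mega), from RNA with a quality score over 7, per the labels. The authors deposited expected counts per gene, estimated with Salmon per the submitters' processing notes, whole numbers without depth scaling. Their other deposited table is a normalised signal, made with DESeq2 per the same notes; its per-gene factors served only to define library class and as offsets in 1 alternative. Versions, annotation and genome build are not given in the sources used here.

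Counts, rounded to whole numbers, went through edgeR 4.0.16 (R 4.3.3): filterByExpr on the groups, TMM scaling, then the quasi-likelihood F-test in its robust form over the 35 libraries, Benjamini-Hochberg adjusted over 14411 of 15059 genes. CPM use TMM-scaled totals, which ran from 5.58 to 9.29 M over the 10 libraries before scaling. The spread between replicates was 5.21 times (estradiol) and 9.29 times (vehicle) what counting error alone gives, and the biological coefficient of variation was 0.152. Alternatives were DESeq2 1.42.0, other normalisations and filters, covariates (class, Rn7sl1, Ttr), subsets of libraries and each library left out. Class is the sign of the first component (72.3% of variance; the second held 1.69%) of the log ratio of both tables, centred by gene and library, over 14326 genes. It gave 20 class A and 15 class B libraries. Library measures were compared by exact permutation of the group labels (scipy 1.17.1). The scripts were tested on simulated data.

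The members, the 36 gene lists and the fits were chosen with earlier results of these data known. Named genes were all called genes with a symbol, the 10 of smallest p as designed, the 10 largest non-overlapping folds each way at 1 CPM or more, up to 4 genes of smallest p per list, and the receptors and aromatase; a choice is printed. Hsph1, Hsp90ab1, Ciart, Tspan2, Mbp, Gsta6, Nfe2l2, Cbln4, Ttr, Atf6 and the UNKNOWN entries were named after their values were seen. Of 1132 entries with an Ensembl identifier only, 0 matched a RefSeq gene. Promoters came from RefSeq (GRCr8); motif matches describe letters only. Some genes are left out of the text.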

Additional observations from a re-analysis of the deposited data

Results flagged for a closer look

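A library was flagged where it lay far from the other 4 of its group (Dixon's criterion for 5 values). Of 170 groups tested 15 were flagged, and chance flags about 1 in 20 groups. Most flags fell on vehicle replicate 4, the class B library: Rn7sl1 at 3.44% of counts and 33500 CPM, Tspan2 at 179, Msmo1 at 80, Rps3a at 194, Efr3b at 136, Sf1 at 115, Krcc1 at 18.9 and UNKNOWN_ENSRNOG00000034093 at 275 CPM. It was the lowest vehicle library for Rn7sl1, Efr3b, Sf1 and the UNKNOWN entry and the highest for the others, so each of these differences from estradiol is larger with it than without it.

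In estradiol replicate 5, Mt-ENSRNOG00000030478 was low at 960 CPM and Xbp1 low at 37.7. Estradiol replicate 2 was high in Nr1d2 at 76.7 CPM and low in Caly at 112. Sf1 was low at 142 in estradiol replicate 1, and Per3 was low at 53.1 in vehicle replicate 2. For Mt-ENSRNOG00000030478, Xbp1, Nr1d2, Caly and Sf1 the flagged library is the estradiol library nearest to vehicle.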

How the results depend on the processing

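The count as designed was 1. It was 43 with class as a term, 31 with only these 10 libraries, 13 by DESeq2, 9 in class A libraries alone, 5 with log2 Ttr as a term, 4 with the authors' per-gene factors, and 0 with log2 Rn7sl1 percent as a term, with Rn7sl1 and mitochondrial entries removed, or in libraries with Ttr under 500 CPM; leaving out 1 library gave 0 to 2. It stayed at 1 with RLE factors and with no filter. The 1 entry that passed as designed is itself mitochondrial, so the setting without mitochondrial entries could not call it. At an unadjusted p under 0.05 the settings with 0 held 1188, 1307 and 870 genes. The count with class, 43, was 40 with RLE factors, 152 in libraries with Ttr under 500 CPM (23 shared), 5 with Rn7sl1 beside class, and 2 to 65 with 1 library left out. Estradiol against sham gave 2 by DESeq2. The Ttr subset and Rn7sl1 beside class were chosen after the data were seen, and the causes were not tested.

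The difference in total counts, -1480000, ran from -1920000 to -1170000 with 1 library left out and passed at the lower end, without estradiol replicate 4 (exact permutation p 0.0159). Folds that had not passed turned sign: Esr2 to 0.005 with class and 0.064 with Rn7sl1 as a term, and between -0.348 and 0.074 with 1 library left out; Gper1 between -0.089 and 0.402 likewise; Pgr to 0.068 in libraries with Ttr under 500 CPM and between -0.052 and 0.07 with 1 library left out; and Rn7sl1 itself to -0.005 with the authors' factors.

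No paired analysis was possible because the library numbers are not shared between groups. Depth limits genes near 1 CPM, such as the receptors.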

Other observations

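Other gene groups of the estradiol and vehicle libraries are given here as values, for Rn7sl1 at 4.99 to 5.88% and 3.44 to 4.84% of counts. Among 19 immediate-early genes, which neurons switch on with activity, 3 were higher and 2 lower at an unadjusted p under 0.05 (all genes: 4.27% and 4.85%). Fosl2, a subunit of the AP-1 factor, was at 12.3, 7.28, 10.8, 12.3 and 10.5 CPM under estradiol and 7.57, 6.73, 7.47, 5.11 and 9.33 under vehicle (log2 fold change 0.55 ± 0.2 SE; edgeR adjusted p 0.384). Btg2, an antiproliferative early gene, was at 12.6, 10.3, 11.6, 10.6 and 12.3 against 13.4, 13.8, 27.6, 13 and 21.6 CPM, where vehicle replicates 3 and 5 were high and the groups did not overlap (-0.64 ± 0.2; 0.347). The summed level of the list ran from 848 to 952 CPM under estradiol and from 662 to 1180 under vehicle, a wider spread.

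Of 21 glycolysis genes 3 were higher and 0 lower at an unadjusted p under 0.05 (all genes: 4.27% and 4.85%). Pkm, the pyruvate kinase of the muscle and brain, was at 824, 801, 860, 850 and 891 against 780, 789, 769, 677 and 738 CPM, without overlap (0.17 ± 0.066; 0.44), and stood at 0.09 with Rn7sl1 as a term. The interneuron peptide Cck was at 138, 149, 130, 144 and 160 against 127, 115, 147, 87.6 and 104 CPM, with overlap (0.31 ± 0.14; 0.523; 0.16 with Rn7sl1 as a term). Of 10 genes of adult neurogenesis 1 was higher and 3 were lower at an unadjusted p under 0.05 (all genes: 4.27% and 4.85%). Their median was -0.186, against -0.0077 over all genes. Of 15 ionotropic glutamate receptor genes 0 reached an unadjusted p under 0.05 (all genes: 9.12%), and their summed level was 3530 to 3780 CPM against 3520 to 3660.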
